A study of Mus musculus with 36 samples.

Results

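The net change over the adult life of the mouse stria vascularis was measured as the difference between cells of 26-month-old and of 1-month-old mice. RNA sequencing gave 9 libraries, of which the 3 at 26 months and the 3 at 1 month, 6 in all, were compared. The 3 libraries of 9-month-old mice entered only as values set beside them. All mice were of the inbred strain given as CBA in the labels and as CBA/J in the study, of either sex, untreated, with no transgene or deletion named. Each library, called A, B or C, came from a pool of about 1000 cells of 4 cochleae from 2 mice, mixed marginal, intermediate and basal cells, and was sequenced in 4 runs. A notes sheet deposited with the values gives 28 months for the columns named 26 months, and the age of 26 months in the labels is used here. Expression is given as deposited by the authors, as RPKM, a read number scaled to the length of the transcript and to the mapped reads of the library. A gene was tested where 3 or more of the 6 libraries reached 0.1 RPKM, which held for 15329 of 48709.

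The stria vascularis is the vascularised epithelium on the outer wall of the cochlear duct. Its marginal cells secrete potassium into the endolymph, its intermediate cells are pigment cells whose potassium channel sets up the endocochlear potential, and its basal cells are joined by tight junctions that seal the tissue from the spiral ligament. A dense capillary bed runs through it, with pericytes and resident macrophages along the vessels. The endocochlear potential drives transduction in hair cells, and thinning of the stria is a known feature of the aging cochlea.

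Libraries of 1 age lay close together. Over the 456 genes averaging 100 RPKM or more, the median coefficient of variation between pairs of libraries was 0.796 to 1.41% for the 3 pairs at 26 months and 1.19 to 5.16% for the 3 pairs at 1 month, where B and C formed the close pair. By the labels each letter is a pool of its own, but the study's methods give the number of biological replicates in more than 1 way and also speak of technical repeats. SDs and p-values below thus measure the spread between these libraries, which may be technical in part. The study's methods give only an approximate read number per sample. Read counts are not part of the values used here, so the exact depth of a library and the precision it gives are unknown. Between 15281 and 15315 genes reached 0.1 RPKM at 26 months, against 14818 to 14872 genes at 1 month. The mitochondrially encoded genes took 9.26 to 9.64% of summed RPKM at 26 months and 10.4 to 13.1% at 1 month, and the haemoglobin genes 0.191 to 0.204% at 26 months and 0.836 to 0.875% at 1 month. Markers of each of the 3 stria cell types were abundant at both ages, with exceptions among the pigment cell genes. The intermediate cell gene Dct had 3146 RPKM at 26 months and 3428 RPKM at 1 month on average, the marginal cell channel gene Kcnq1 154 RPKM at 26 months and 155 RPKM at 1 month on average and the basal cell claudin gene Cldn11 25.1 RPKM at 26 months and 27.7 RPKM at 1 month on average. Of the defining pigment cell genes, Oca2 was listed at 0 in all 6 libraries and Tyrp1 had at most 0.025 RPKM, and neither was tested. Of the hair cell genes, Otof was listed at 0 in all 6 libraries and Slc26a5 had at most 0.05 RPKM. Pools held mice of either sex. Xist, the RNA that silences 1 X chromosome in females, had 0.55 to 0.625 RPKM at 26 months and 0.225 to 0.3 RPKM at 1 month. The Y-linked Ddx3y had 12.2 to 12.3 RPKM at 26 months and 6 to 7.05 RPKM at 1 month, whereas Eif2s3y, also Y-linked, averaged 5.01 ± 0.0804 RPKM at 26 months and 4.98 ± 0.621 RPKM at 1 month (mean ± SD of n = 3 libraries each, here and below). The part of sex in the results was not tested.

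Across all genes, expression moved upward with age on the deposited scale. The median log2 fold change of 26 months over 1 month, computed on log2(RPKM + 0.1), was 0.25, with quartiles of −0.13 and 0.63, and 66.9% of genes lay above 0. A call required a limma p, adjusted by Benjamini-Hochberg, of 0.10 or less and a log2 fold change of 1 or more in either direction. By this rule 1562 genes were called higher at 26 months, 10.2% of those tested, and 394 lower, 2.57%. Relative to the all-gene median, 845 genes were called higher, 5.51%, and 711 lower, 4.64%, and these included all 394 genes called lower on the deposited scale. The size of most changes was small: 62.5% of genes lay within a log2 of 0.5 of the median, and 191 called genes were past a log2 of 2 upward and 70 downward. Values of the 6 libraries did not overlap between the ages for 76.3% of genes, 54.1% higher at 26 months and 22.2% lower, so a lack of overlap marks most genes.

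**Figure D1:**
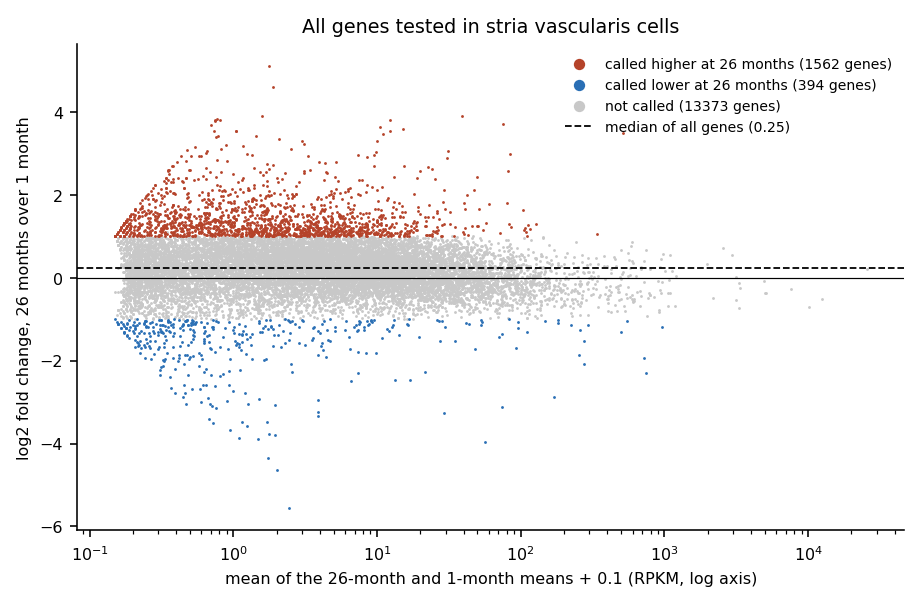
Log2 fold change of 26 months over 1 month for each of the 15329 genes tested (vertical axis) against its mean RPKM (horizontal log axis). The cloud is centred on the dashed median of 0.25, with 1562 genes called higher and 394 called lower; the slanted edges on the left are set by the constant of 0.1 RPKM.

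The split between higher and lower genes depended on the scaling. Quantile normalization gave 775 genes called higher and 733 lower, and median of ratios scaling gave 905 and 681. A larger constant shrank both counts, to 452 higher and 112 lower with 1 RPKM added in place of 0.1. Of the genes called higher, 223 had less than 0.1 RPKM in all libraries of 1 month and 490 had a mean of at least 5 RPKM at 26 months. Of those called lower, 88 had less than 0.1 RPKM in all libraries of 26 months and 96 had a mean of at least 5 RPKM at 1 month. Averaging the near-identical libraries, which leaves the 26-month age as a lone sample whose spread is taken from the other ages, gave 1547 higher and 381 lower, of which 1490 and 377 were among the calls above.

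The upward shift grew with the length of the transcript. In the 20% of genes with the shortest exons, of median exon length 1328 bases, the median log2 fold change was −0.11, with 254 genes called higher and 209 lower. In the 20% with the longest exons, of median 9413 bases, it was 0.52, with 444 higher and 22 lower. The medians of the 3 classes between were 0.07, 0.25 and 0.38. Within bands of mean RPKM the longest class lay above the shortest. The medians were 0.28 in the longest and −0.35 in the shortest class above 100 RPKM, where the longest held 9 genes, 0.53 and −0.19 between 5 and 25 RPKM, and 0.48 and 0.07 under 1 RPKM. Removing the trend with exon length also removed the all-gene shift, to a median of −0.0043, and gave 878 genes called higher and 490 lower. Relative to the all-gene median, 884 genes were called higher and 484 lower with the trend removed, against 845 and 711 with it kept. Short genes of high level, among them those of ribosomal proteins and the respiratory chain, lay below the median and long genes above it on the deposited scale.

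**Figure D2:**
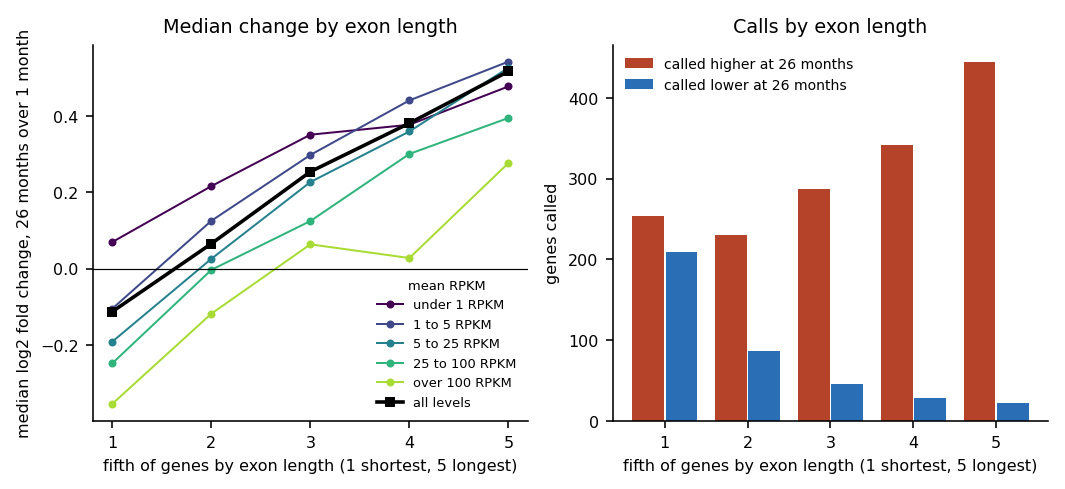
Median log2 fold change of 26 months over 1 month in each of 5 classes of genes by exon length, for all genes (black) and in 5 bands of mean RPKM (left), and the number of genes called in each direction (right). The median runs from −0.11 in the shortest to 0.52 in the longest class, and lower calls from 209 to 22.

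Protein-coding genes, the autosomes and the X chromosome had medians near that of all genes, and lincRNAs and antisense genes lay lower. The 13810 protein-coding genes had a median log2 fold change of 0.26, the 400 lincRNAs 0.13 and the 529 antisense genes 0.04, whose reads cannot be told apart from those of their partners where counting ignores strand. Among the autosomes and the X chromosome, medians ran from 0.20 on chromosome 11 to 0.34 on chromosome 18. Small gene types of the lymphocyte antigen receptors lay further off. The 15 immunoglobulin variable genes had a median of −1.32, with 3 called higher and 9 lower, and the 6 constant genes of the T cell receptor a median of 1.91, with 5 called higher and 0 lower.

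The largest increases at 26 months included genes of the myeloid lineage, of the early response to stimulation and of transcription and signalling. By rule, the 14 leading genes in each direction had a mean of at least 5 RPKM at the higher age. They were also past a log2 of 1 relative to the all-gene median and had no overlap between the ages. They were taken from 238 higher and 91 lower genes that met this rule. Coordinates below are those of the whole gene on GRCm38, and fold changes are given ± SE. Lyz2, the lysozyme of macrophages and neutrophils (chromosome 10, 117277331 to 117282321), had 938, 939.7 and 960.4 RPKM at 26 months, against 85.1, 84.7 and 82.8 RPKM at 1 month (log2 fold change 3.49 ± 0.026, SE, limma adjusted p = 1.59e-09). It was the most abundant of the 14, and the ratio of its means was 11.2. Cd14, the co-receptor for bacterial lipopolysaccharide (chromosome 18, 36725067 to 36726798), had 28, 26.8 and 28.4 RPKM at 26 months, against 2.33, 2.33 and 1.98 RPKM at 1 month (log2 fold change 3.59 ± 0.066, limma adjusted p = 4.79e-08). Lgals3, a galectin released by activated macrophages (chromosome 14, 47367751 to 47386160), had 22.7, 23.5 and 22.1 RPKM at 26 months, against 1.88, 1.9 and 1.8 RPKM at 1 month (log2 fold change 3.55 ± 0.04, limma adjusted p = 8.81e-09). In each of these genes every 26-month library lay above every 1-month library, as the rule required. The gap was larger than the spread within either age.

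Egr1 (chromosome 18, 34859823 to 34864984) and Fos (chromosome 12, 85473890 to 85477273), transcription factors of the immediate early response, were below 2 RPKM in every 1-month library. Egr1 had 23.2, 22.5 and 22.9 RPKM at 26 months, against 1.52, 1.82 and 1.32 RPKM at 1 month (log2 fold change 3.80 ± 0.099, limma adjusted p = 1.69e-07). Fos had 19.7, 18.4 and 19.4 RPKM at 26 months, against 1.27, 1.55 and 1.55 RPKM at 1 month (log2 fold change 3.63 ± 0.077, limma adjusted p = 8.09e-08). Ciart, a repressor in the circadian clock (chromosome 3, 95878503 to 95882251), had 18.1, 18.2 and 17.6 RPKM at 26 months, against 1.82, 1.65 and 1.75 RPKM at 1 month (log2 fold change 3.30 ± 0.045, limma adjusted p = 1.57e-08). Fam189a2, which encodes a transmembrane protein (chromosome 19, 23972750 to 24031019), had 139, 139 and 140.2 RPKM at 26 months, against 10.1, 11.1 and 10.8 RPKM at 1 month (log2 fold change 3.70 ± 0.037, limma adjusted p = 4.83e-09). Pcsk6, a proprotein convertase (chromosome 7, 65861734 to 66050386), had 150.0, 150.2 and 150.2 RPKM at 26 months, against 18.3, 18.8 and 19.1 RPKM at 1 month (log2 fold change 2.999 ± 0.026, limma adjusted p = 2.16e-09), so that both it and Fam189a2 were among the more abundant transcripts of the old stria. Mbd2, which binds methylated CpG sites, had 20.1, 20.2 and 20.1 RPKM at 26 months, against 1.9, 1.62 and 1.68 RPKM at 1 month (log2 fold change 3.47). The G protein subunit Gna12 averaged 55.6 ± 1.03 RPKM at 26 months and 6.62 ± 0.588 RPKM at 1 month. The remaining higher genes were the receptor tyrosine kinase inhibitor Spry1 (log2 fold change 3.31), the low-density lipoprotein receptor relative Lrp3 (3.22), the cold shock domain protein Ybx3 (3.03) and the intramembrane protease Sppl3 (2.96). The largest SE among the 14 was that of Egr1, and relative to the all-gene median the 14 differences ran from 2.71 to 3.56.

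**Figure D3:**
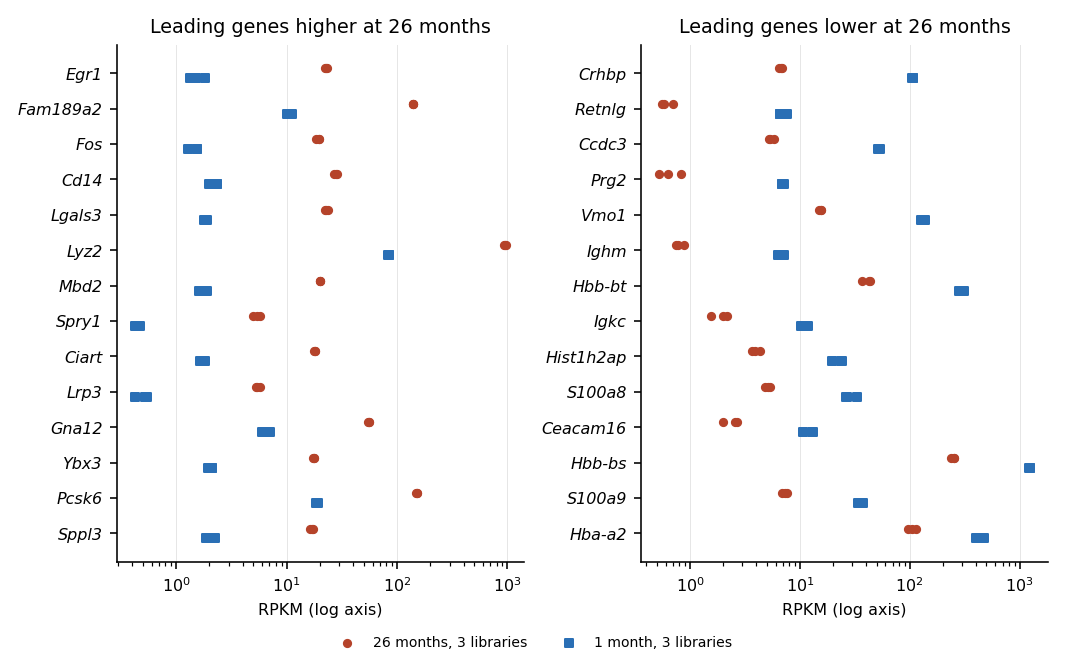
RPKM in each library (log axis) of the 14 leading genes higher at 26 months (left) and the 14 leading genes lower at 26 months (right), with 26 months as circles above 1 month as squares in each row. No gene shown has overlapping ages, as the rule of choice required. Crhbp has 6.5 to 6.92 RPKM at 26 months and 105 to 107 RPKM at 1 month.

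The largest decreases were in genes of secreted and matrix proteins, of blood cells and of a histone. Crhbp, a secreted protein that binds corticotropin-releasing hormone (chromosome 13, 95431371 to 95444924), had 6.5, 6.92 and 6.67 RPKM at 26 months, against 107, 107 and 105 RPKM at 1 month (log2 fold change −3.97 ± 0.031, limma adjusted p = 1.59e-09). The 1-month libraries were within 2 RPKM of each other and lay far above those of 26 months. Vmo1, the homolog of a protein of the outer vitelline membrane of the egg (chromosome 11, 70513516 to 70514616), had 15.6, 15.5 and 14.8 RPKM at 26 months, against 126, 137 and 135 RPKM at 1 month (log2 fold change −3.11 ± 0.041, limma adjusted p = 1.57e-08). Ceacam16, a glycoprotein of the tectorial membrane (chromosome 7, 19852097 to 19861299), had 2.55, 1.98 and 2.67 RPKM at 26 months, against 10.6, 13.3 and 12.8 RPKM at 1 month (log2 fold change −2.30 ± 0.13, limma adjusted p = 2.9e-06), with the 1-month library A the lowest of its age. Ccdc3, a secreted coiled-coil protein (chromosome 2, 5137776 to 5230878), had 5.17, 5.33 and 5.75 RPKM at 26 months, against 50.9, 54 and 52.9 RPKM at 1 month (log2 fold change −3.26 ± 0.046, limma adjusted p = 1.84e-08). The others were the haemoglobin genes Hbb-bt, Hbb-bs and Hba-a2 (log2 fold changes −2.87, −2.30 and −2.09), the neutrophil genes Retnlg, S100a8 and S100a9 (−3.32, −2.46 and −2.27), Prg2, the major basic protein of eosinophils (−3.24), the immunoglobulin constant genes Ighm and Igkc (−2.94 and −2.50) and the histone gene Hist1h2ap (−2.48). Haemoglobin genes come in pairs, and histone genes in clusters, of near-identical sequence, and how reads were divided among such copies is uncertain.

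Identity genes of the stria itself were grouped in a list for each cell type. Members of each list are described by how many were called, against 10.2% of all genes called higher and 2.57% lower, and by their median, against 0.25 for all genes. The lists, like the comparison, were chosen with earlier results of these data known, and the shares are descriptions. Members that stand here without coordinates or tests were in part named for their role, or because a count was small, after their values were seen. Of 17 marginal cell genes, none was called higher and 1 lower, with a median log2 fold change of 0.34. Kcne1, the auxiliary subunit of the apical potassium channel, had 691, 687 and 686 RPKM at 26 months, against 694, 777 and 759.5 RPKM at 1 month (log2 fold change −0.11, limma adjusted p = 0.0562). Its pore subunit Kcnq1 averaged 154 ± 2.25 RPKM at 26 months and 155 ± 6.37 RPKM at 1 month, with overlapping libraries. The sodium, potassium and chloride cotransporter Slc12a2 had 905, 907 and 925 RPKM at 26 months, against 614, 552 and 567 RPKM at 1 month, a log2 fold change of 0.66, short of the threshold, with no overlap between the ages. The only called marginal member, Tmem72, averaged 0.025 RPKM at 26 months and 0.333 RPKM at 1 month, and no member was called with a constant of 0.5 RPKM. Summed over the list, marginal cell genes had 3722 to 3743 RPKM at 26 months and 3073 to 3157 RPKM at 1 month.

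Intermediate cells had 3 of 18 tested genes called higher and none lower, with a median of 0.24, close to that of all genes. Pmel, the amyloid scaffold on which melanin is laid down (chromosome 10, 128704195 to 128720238), had 2.73, 2.58 and 2.58 RPKM at 26 months, against 0.425, 0.425 and 0.325 RPKM at 1 month (log2 fold change 2.48 ± 0.095, limma adjusted p = 6.23e-07). Kit, the receptor for stem cell factor in pigment cells, averaged 0.475 ± 0.0661 RPKM at 26 months and 0.117 ± 0.0144 RPKM at 1 month. Mitf, the transcription factor that directs the pigment cell program, averaged 12.3 ± 0.05 RPKM at 26 months and 5.72 ± 0.205 RPKM at 1 month. Mitf was not called relative to the median (difference of 0.85) nor with quantile normalization, median of ratios scaling or the length trend removed. The abundant members were not called. Dct, an enzyme of melanin synthesis, averaged 3146 ± 3.99 RPKM at 26 months and 3428 ± 73.3 RPKM at 1 month. The potassium channel Kcnj10, which generates the endocochlear potential, averaged 312 ± 1.12 RPKM at 26 months and 171 ± 2.34 RPKM at 1 month (log2 fold change 0.87). The pigment gene Slc24a5 had a log2 fold change of −0.76 and was called lower relative to the median only. Summed over the list there were 7526 to 7587 RPKM at 26 months and 7925 to 8126 RPKM at 1 month, and the sign of the list's median turned with the scaling, between −0.02 with median of ratios scaling and 0.26 with quantile normalization.

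Basal cell and tight junction genes had 1 of 15 tested members called. Cldn4, a claudin of tight epithelia (chromosome 5, 134945119 to 134946934), had 18.6, 17.1 and 17.1 RPKM at 26 months, against 3.33, 4.12 and 3.9 RPKM at 1 month (log2 fold change 2.19 ± 0.079, limma adjusted p = 5.06e-07). The basal cell claudin Cldn11 averaged 25.1 ± 1.1 RPKM at 26 months and 27.7 ± 3.23 RPKM at 1 month. The connexin gene Gjb2 averaged 336 ± 1.45 RPKM at 26 months and 305 ± 3.63 RPKM at 1 month. Neither was past the fold threshold. Without 26-month library B or without 1-month library B, 2 members of the list were called higher. The list median was 0.22 and −0.05 with median of ratios scaling, so no direction is given. Of the 19 tested genes on which the endocochlear potential depends, 2 were called higher and none lower, with a median of 0.28. Fxyd2, the gamma subunit that tunes the sodium-potassium pump (chromosome 9, 45399669 to 45410278), had 68.3, 70.1 and 63.6 RPKM at 26 months, against 16.2, 16.5 and 17.7 RPKM at 1 month (log2 fold change 1.996 ± 0.048, limma adjusted p = 1.35e-07). Kcnma1, the large-conductance potassium channel, averaged 9.23 ± 0.25 RPKM at 26 months and 4.15 ± 0.246 RPKM at 1 month, a log2 fold change of 1.14, or 0.89 relative to the median, where its call was lost. Atp1b1 and Atp1b2, subunits of that pump, had log2 fold changes of −0.27 and 0.34.

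Cells beside the stria differed more in single genes than as lists. Of 17 marker genes of spiral ligament fibrocytes, 2 were called higher and 1 lower, and the list median was 0.10 on the deposited scale but −0.39 with the length trend removed. Coch, the main protein of the fibrocyte matrix, mutated in a human deafness (chromosome 12, 51593341 to 51605771), had 155, 156 and 159 RPKM at 26 months, against 52.4, 49.7 and 49.4 RPKM at 1 month (log2 fold change 1.63 ± 0.031, limma adjusted p = 5.28e-08). Slc4a11, a transporter of the ligament fibrocytes (chromosome 2, 130684113 to 130697519), had 29.3, 29.3 and 27.9 RPKM at 26 months, against 8.47, 9.72 and 10.1 RPKM at 1 month (log2 fold change 1.61 ± 0.064, limma adjusted p = 7.04e-07). Aqp1, a water channel, had 0.425, 0.45 and 0.5 RPKM at 26 months, against 1.98, 2.17 and 2.02 RPKM at 1 month (log2 fold change −1.95 ± 0.075, limma adjusted p = 6.35e-07). The fibrocyte genes Otos, Pou3f4 and Dcn had log2 fold changes of 0.60, −0.43 and −0.25, none called. Summed RPKM of the list was 357 to 358 RPKM at 26 months and 209.7 to 211 RPKM at 1 month, with Coch the largest part at both ages. In bulk samples, fewer cells of a type and less RNA per cell cannot be told apart.

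Spindle and root cell markers, of the edges of the stria and the outer sulcus, had 1 of 9 tested members higher, Fxyd2 again, and 2 lower. Epyc, a small leucine-rich proteoglycan, had 3.77, 4.05 and 4.97 RPKM at 26 months, against 15.9, 14.9 and 14.9 RPKM at 1 month (log2 fold change −1.82 ± 0.095, limma adjusted p = 2.25e-06). Slc26a7, an anion exchanger, had 0.15, 0.175 and 0.175 RPKM at 26 months, against 1.65, 1.43 and 1.45 RPKM at 1 month (log2 fold change −2.59 ± 0.089, limma adjusted p = 4.34e-07). The chloride and bicarbonate exchanger Slc26a4, which defines spindle cells, averaged 16.7 ± 0.163 RPKM at 26 months and 11.7 ± 0.366 RPKM at 1 month. Of 17 tectorial membrane, otic matrix and hair cell genes, 8 were tested, of which 3 were called lower: Vmo1, Ceacam16 and, named because the count is small, Otoa (log2 fold change −1.40). Relative to the median, with quantile or median of ratios scaling, or without 26-month library A, 5 were called lower. Without 26-month library B 2 were called higher. Col11a2, a collagen of the tectorial membrane, was called higher at 22.4 ± 0.666 RPKM at 26 months and 11.1 ± 0.998 RPKM at 1 month, a log2 fold change of 1.01 that fell short of the threshold relative to the median (0.77), without 26-month library C (0.998) and without 1-month library A (0.94).

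Genes of macrophages and of antigen presentation rose in part. Of 21 tested macrophage markers, 9 were called higher and none lower, with a median log2 fold change of 0.88; relative to the median of all genes 7 were higher and 1 lower. Beside Lyz2 and Cd14, Ctss, the lysosomal protease cathepsin S (chromosome 3, 95526786 to 95556403), had 61.7, 63.8 and 62.7 RPKM at 26 months, against 17.8, 17.5 and 18.1 RPKM at 1 month (log2 fold change 1.82 ± 0.028, limma adjusted p = 2.67e-08). Cd68, a lysosomal glycoprotein of macrophages (chromosome 11, 69664213 to 69666153), had 36.1, 36.8 and 34.1 RPKM at 26 months, against 10.1, 10.8 and 10.6 RPKM at 1 month (log2 fold change 1.75 ± 0.04, limma adjusted p = 1.17e-07). The identity receptors moved less: Csf1r, the receptor for the macrophage growth factor, averaged 5.58 ± 0.281 RPKM at 26 months and 5.29 ± 0.224 RPKM at 1 month, with overlapping libraries. The fractalkine receptor Cx3cr1 averaged 3.77 ± 0.101 RPKM at 26 months and 2.34 ± 0.0144 RPKM at 1 month (log2 fold change 0.66). Markers of perivascular macrophages were low at both ages. There were 0.133 RPKM at 26 months and 0.242 RPKM at 1 month for the mannose receptor Mrc1, and 0.025 RPKM at 26 months and 0.125 RPKM at 1 month for Lyve1. Summed RPKM of the list was 1356 to 1378 RPKM at 26 months and 279.6 to 287 RPKM at 1 month, and Lyz2 alone made up most of the 26-month sum.

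Of 16 tested genes of the major histocompatibility complex and its processing machinery, 5 were called higher and none lower on either scale, with a list median of 0.77. Cd74, the invariant chain that guides class II molecules (chromosome 18, 60803848 to 60812652), had 31.4, 32.4 and 31.3 RPKM at 26 months, against 5.5, 6.28 and 5.92 RPKM at 1 month (log2 fold change 2.41 ± 0.05, limma adjusted p = 7.89e-08). The class II chains H2-Ab1 and H2-Aa averaged 8.82 ± 0.44 RPKM at 26 months and 1.68 ± 0.263 RPKM at 1 month for H2-Ab1, and 3.55 ± 0.175 RPKM at 26 months and 0.742 ± 0.128 RPKM at 1 month for H2-Aa. Psmb8, a subunit of the immunoproteasome, averaged 7.97 ± 0.401 RPKM at 26 months and 2.76 ± 0.236 RPKM at 1 month. Also called was the class II chain H2-Eb1 (log2 fold change 1.27). The class I genes H2-K1 and H2-D1 had log2 fold changes of 0.71 and 0.67, and their shared light chain B2m one of −0.44, none past the threshold. All 5 called members other than Psmb8 belong to class II.

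Chemokines and cytokines had 11 of 16 tested members called higher and none lower, with a median of 1.23, and 8 relative to the median. Most were below 1 RPKM, so that the fold changes depend on the constant added, and 3 were called among genes that reached 1 RPKM in 3 or more libraries, 2 with a constant of 0.5 RPKM and 1 with a constant of 1 RPKM. Cxcl14, a chemokine of epithelia (chromosome 13, 56288643 to 56296551), had 1.85, 1.8 and 1.77 RPKM at 26 months, against 0.075, 0.025 and 0.1 RPKM at 1 month (log2 fold change 3.54 ± 0.17, limma adjusted p = 1.51e-06). Cxcl10, which is induced by interferon and draws T cells, averaged 1.24 ± 0.159 RPKM at 26 months and 0.383 ± 0.0289 RPKM at 1 month. Ccl5, made by T cells, averaged 1.13 ± 0.194 RPKM at 26 months and 0.467 ± 0.0764 RPKM at 1 month. The membrane-bound chemokine Cx3cl1 averaged 5.39 ± 0.166 RPKM at 26 months and 2.58 ± 0.214 RPKM at 1 month. Neither Ccl5 nor Cx3cl1 was called relative to the median (0.87 and 0.80), and each was just short of the threshold with 1 library left out, Ccl5 without 26-month library C (0.996) and Cx3cl1 without 1-month library A (0.98). The inflammatory cytokines Il6 and Tnf, with at most 0.05 RPKM in any library, were not tested.

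Lymphocyte markers divided by lineage. Of 12 tested, 4 were called higher, all of T cells, and 5 lower, all of B cells. Cd3g, a chain of the T cell receptor complex (chromosome 9, 44969572 to 44980431), had 1.2, 1.52 and 1.5 RPKM at 26 months, against 0, 0.025 and 0 RPKM at 1 month (log2 fold change 3.80 ± 0.14, limma adjusted p = 5.29e-07). The other T cell genes, named because the count is small, were Cd3e, Cd4 and Trbc2, with 26-month means of 0.475, 1.18 and 0.45 RPKM against 1-month means of 0.00833, 0.142 and 0.0333 RPKM. Ighm, the constant region of immunoglobulin M (chromosome 12, 113418558 to 113422730), had 0.775, 0.875 and 0.75 RPKM at 26 months, against 6.38, 6.92 and 7.15 RPKM at 1 month (log2 fold change −2.94 ± 0.071, limma adjusted p = 1.32e-07). Igkc, the kappa light chain constant region, had 1.55, 2.15 and 2 RPKM at 26 months, against 11.3, 10.2 and 11.8 RPKM at 1 month. Cd79b, a signalling chain of the B cell receptor, had 0.125, 0.1 and 0.1 RPKM at 26 months, against 1, 1.2 and 1.32 RPKM at 1 month. Cd79a, its partner chain, had a log2 fold change of −2.24. All values lay under 12 RPKM, and with a constant of 1 RPKM 1 member was called higher and 2 lower. The fold of Cd3g depends on the constant, since it was listed at 0 in all but 1 library of 1 month.

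Complement genes had 4 of 14 members higher and 1 lower, and 3 higher and 2 lower relative to the median. Cfb, a component of the alternative pathway, had 1.77, 1.48 and 1.8 RPKM at 26 months, against 0.275, 0.3 and 0.2 RPKM at 1 month (log2 fold change 2.32 ± 0.13, limma adjusted p = 3.17e-06). C5ar1, the receptor for C5a on myeloid cells, averaged 1.17 ± 0.052 RPKM at 26 months and 0.392 ± 0.0764 RPKM at 1 month. C4b, of the classical pathway, averaged 4.47 ± 0.0433 RPKM at 26 months and 1.91 ± 0.0382 RPKM at 1 month, not called relative to the median (0.94). Cfd, complement factor D, was called too (log2 fold change 2.31), and the lower gene was C1s1, listed at 0 in all 26-month libraries and at a mean of 0.533 RPKM at 1 month. Clusterin, Clu, the most abundant member, averaged 662 ± 9.88 RPKM at 26 months and 1181 ± 74.1 RPKM at 1 month and was called lower relative to the median only (log2 fold change −0.83). Interferon response genes had 3 of 22 members higher and none lower. Ifit1, which binds foreign RNA (chromosome 19, 34640871 to 34650009), had 15.9, 15.7 and 16.1 RPKM at 26 months, against 4.88, 4.38 and 3.85 RPKM at 1 month (log2 fold change 1.84 ± 0.078, limma adjusted p = 9.1e-07). Its relative Ifit2 averaged 6.59 ± 0.0382 RPKM at 26 months and 2.27 ± 0.198 RPKM at 1 month. The guanylate-binding protein gene Gbp2 averaged 2.6 ± 0.132 RPKM at 26 months and 1.05 ± 0.05 RPKM at 1 month, which was 0.99 relative to the median and not called there. The abundant members Ifitm3 and Ifi27 had log2 fold changes of −0.56 and −0.33.

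Genes of red cells and of neutrophil granules fell. Of 15 tested red cell genes, 11 were called lower and none higher on both scales, with a median log2 fold change of −1.93. Hbb-bs, a beta globin (chromosome 7, 103826534 to 103828096), had 254, 256 and 239.7 RPKM at 26 months, against 1239.8, 1222 and 1239 RPKM at 1 month (log2 fold change −2.30 ± 0.033, limma adjusted p = 1.84e-08). Hba-a1, an alpha globin (chromosome 11, 32283511 to 32284465), had 305, 297 and 295 RPKM at 26 months, against 1023, 1223 and 1172 RPKM at 1 month (log2 fold change −1.93 ± 0.063, limma adjusted p = 3.73e-07). Slc4a1, the band 3 anion exchanger of the red cell membrane, had 0.2, 0.2 and 0.15 RPKM at 26 months, against 2.73, 3.45 and 3.05 RPKM at 1 month (log2 fold change −3.49 ± 0.11, limma adjusted p = 3.63e-07). The erythroid transcription factor Klf1 averaged 0.175 ± 0.0433 RPKM at 26 months and 2.15 ± 0.222 RPKM at 1 month. The heme enzyme Alas2 averaged 3.2 ± 0.3 RPKM at 26 months and 11.3 ± 0.804 RPKM at 1 month. Of the 15, 2 had a log2 fold change above 0. Car2, Bpgm and Fech, which are also made by other cells, were among the members that did not pass, with log2 fold changes of −0.50 to 0.24. The highest log2 fold change of the list was 0.73, in a further member that was not called. Summed RPKM was 1015 to 1051 RPKM at 26 months and 3490.1 to 3596 RPKM at 1 month.

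Neutrophil granule genes had 9 of 14 tested members lower and none higher, with a median of −1.51. S100a9 and S100a8 are the chains of calprotectin. S100a9 (chromosome 3, 90692632 to 90695721) had 7.38, 7.55 and 6.83 RPKM at 26 months, against 37.5, 33.5 and 35.2 RPKM at 1 month. S100a8 (chromosome 3, 90668978 to 90670035) had 5.38, 5.08 and 4.8 RPKM at 26 months, against 32.8, 26.3 and 26.6 RPKM at 1 month. Retnlg, a resistin-like protein of neutrophils, had 0.7, 0.575 and 0.55 RPKM at 26 months, against 7.67, 6.65 and 6.62 RPKM at 1 month (log2 fold change −3.32 ± 0.096, limma adjusted p = 2.4e-07). Camp, the antimicrobial peptide cathelicidin, had 1.75, 1.82 and 1.62 RPKM at 26 months, against 6.35, 6.72 and 7.53 RPKM at 1 month (log2 fold change −1.92 ± 0.073, limma adjusted p = 5.89e-07). Genes of the primary granules, which form earliest in the marrow, were not among them. Elane averaged 1.32 ± 0.104 RPKM at 26 months and 1.18 ± 0.1 RPKM at 1 month. Mpo averaged 1.62 ± 0.0764 RPKM at 26 months and 1.23 ± 0.166 RPKM at 1 month. Neither was called. Summed RPKM of the list was 26.6 to 27.1 RPKM at 26 months and 99.9 to 111 RPKM at 1 month. Bone matrix genes went both ways. Of 9 tested, 3 were called higher and 2 lower, with a median of 0.81, and with a constant of 1 RPKM 1 was called higher and 2 lower. The lower ones were the osteocalcin genes. Bglap (chromosome 3, 88383501 to 88384464), had 0.125, 0.075 and 0.25 RPKM at 26 months, against 2.98, 2.9 and 3.67 RPKM at 1 month (log2 fold change −3.77 ± 0.24, limma adjusted p = 5.78e-06). Its neighbour Bglap2 had 0.8, 0.8 and 1 RPKM at 26 months, against 3.1, 4.55 and 4.35 RPKM at 1 month, and the pair are near-identical copies, so their values are uncertain. Whether blood left on the dissected tissue had a part in the falls of red cell and neutrophil genes was not tested, nor whether it had one in the macrophage genes above.

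**Figure D4:**
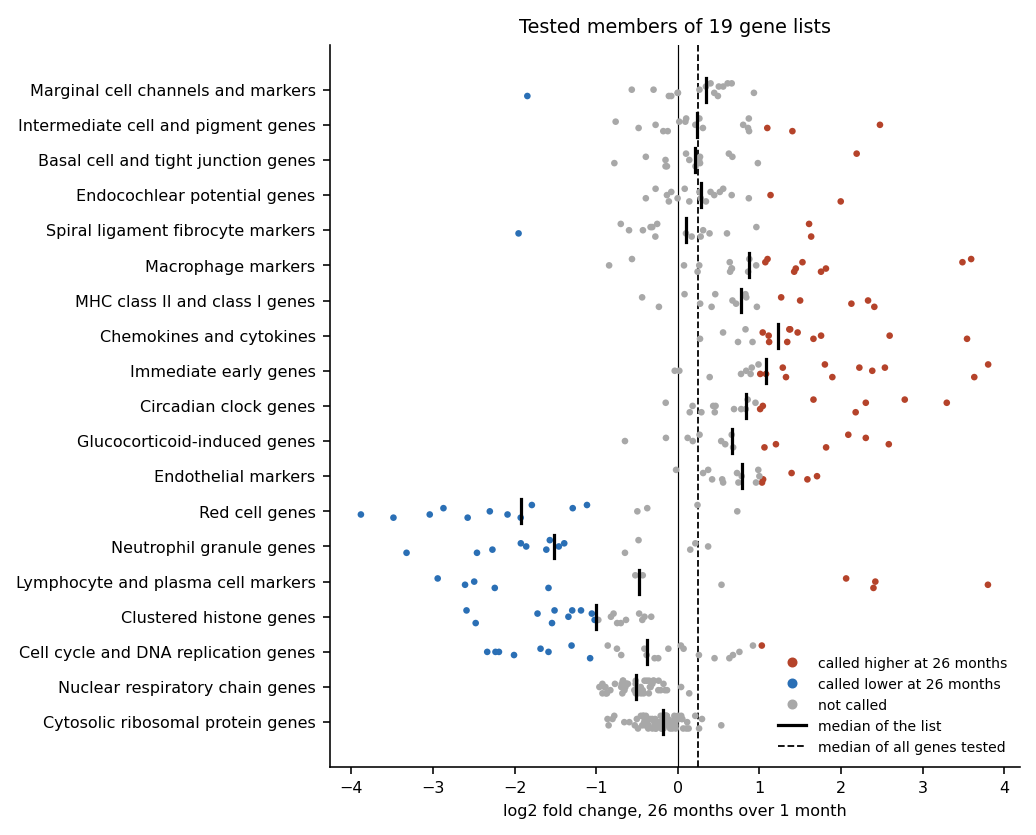
Log2 fold change of 26 months over 1 month for each tested member (points) of 19 gene lists, with the list median as a black bar, 0 as a solid line and the all-gene median of 0.25 as a dashed line. Medians run from −1.93 for red cell genes to 1.23 for chemokines and cytokines, and the lists of the stria's own cells sit near the dashed line.

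Immediate early genes are switched on within minutes of a stimulus. Of 19 tested, 11 were called higher at 26 months and none lower, 9 relative to the median, with a list median of 1.08. Junb, a partner of Fos in the AP-1 factor (chromosome 8, 84974484 to 84978718), had 43, 41 and 44.2 RPKM at 26 months, against 7.4, 8.43 and 8.55 RPKM at 1 month (log2 fold change 2.38 ± 0.06, limma adjusted p = 1.51e-07). Zfp36, which destabilises mRNAs of cytokines (chromosome 7, 28376784 to 28380253), had 19.3, 19.6 and 18.7 RPKM at 26 months, against 7.45, 7.67 and 7.67 RPKM at 1 month (log2 fold change 1.33 ± 0.033, limma adjusted p = 1.38e-07). The stress-induced factor Atf3 averaged 7.51 ± 0.0382 RPKM at 26 months and 1.23 ± 0.238 RPKM at 1 month. The orphan receptor Nr4a1 averaged 21.9 ± 0.675 RPKM at 26 months and 6.21 ± 0.549 RPKM at 1 month. The phosphatase gene Dusp1, the most abundant member at 189.5 ± 1.61 RPKM at 26 months and 95.6 ± 5.95 RPKM at 1 month, was just short of the threshold (log2 fold change 0.99). Klf4 and Ier3 had overlapping libraries and log2 fold changes of 0.02 and −0.04. Summed RPKM was 692 to 709 RPKM at 26 months and 296 to 330.1 RPKM at 1 month.

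The circadian clock is a feedback loop in which the activators Clock and Arntl drive the repressors of the Per and Cry families through a DNA element, the E-box. Of its 19 genes, 7 were called higher and none lower, 5 relative to the median, with a list median of 0.83. Per1, a repressor (chromosome 11, 69095217 to 69109960), had 4.83, 4.62 and 4.55 RPKM at 26 months, against 0.8, 0.925 and 0.875 RPKM at 1 month (log2 fold change 2.30 ± 0.062, limma adjusted p = 1.88e-07). Its relative Per2 averaged 7.43 ± 0.151 RPKM at 26 months and 1 ± 0.115 RPKM at 1 month. Bhlhe40 and Bhlhe41 are repressors that bind E-boxes themselves. Bhlhe40 (chromosome 6, 108660629 to 108666925) had 63.5, 62.6 and 61.8 RPKM at 26 months, against 19.6, 19.9 and 19.7 RPKM at 1 month (log2 fold change 1.66 ± 0.026, limma adjusted p = 2.71e-08). Bhlhe41 (chromosome 6, 145858243 to 145865558) had 14.8, 15.1 and 15 RPKM at 26 months, against 3.3, 3.17 and 3.2 RPKM at 1 month (log2 fold change 2.18 ± 0.033, limma adjusted p = 2.67e-08). Cry2 and Clock, at log2 fold changes of 1.04 and 1.01, were not called relative to the median, and 6 members were called higher when 26-month library B, 1-month library A or 1-month library B was left out. The activator Arntl averaged 3.89 ± 0.0878 RPKM at 26 months and 3.51 ± 0.118 RPKM at 1 month. Dbp, a direct output of the loop, averaged 16.9 ± 0.0289 RPKM at 26 months and 13.8 ± 1.06 RPKM at 1 month. Neither was called. The nuclear receptor Nr1d1, which represses Arntl, averaged 60.6 ± 0.619 RPKM at 26 months and 31.4 ± 1.93 RPKM at 1 month, a log2 fold change of 0.95. Repressors of the loop thus made up the called members apart from Clock. The study's methods do not give the time of day at which cells were collected, and its part was not tested.

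The upstream sequence of 3 of the called clock genes is shown because the E-box CACGTG, which reads the same on both strands, lies in each. The 250 bases before the annotated start are from RefSeq on GRCm38.p6, written 5′ to 3′ on the strand of the gene, with each E-box in capitals: Ciart is chr3:95882229-95882478 on the minus strand, Per1 is chr11:69098699-69098948 on the plus strand (the window of 1 of its 2 starts) and Bhlhe41 is chr6:145865421-145865670 on the minus strand.
Ciart: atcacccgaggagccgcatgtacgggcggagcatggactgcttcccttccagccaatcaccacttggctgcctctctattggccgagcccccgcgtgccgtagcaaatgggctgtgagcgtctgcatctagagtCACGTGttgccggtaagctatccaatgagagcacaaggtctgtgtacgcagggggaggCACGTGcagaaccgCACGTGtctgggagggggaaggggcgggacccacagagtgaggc
Per1: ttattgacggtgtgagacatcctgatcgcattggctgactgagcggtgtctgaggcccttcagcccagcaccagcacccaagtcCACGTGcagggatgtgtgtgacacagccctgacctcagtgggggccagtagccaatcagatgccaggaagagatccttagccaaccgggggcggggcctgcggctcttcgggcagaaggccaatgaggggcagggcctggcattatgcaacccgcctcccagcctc
Bhlhe41: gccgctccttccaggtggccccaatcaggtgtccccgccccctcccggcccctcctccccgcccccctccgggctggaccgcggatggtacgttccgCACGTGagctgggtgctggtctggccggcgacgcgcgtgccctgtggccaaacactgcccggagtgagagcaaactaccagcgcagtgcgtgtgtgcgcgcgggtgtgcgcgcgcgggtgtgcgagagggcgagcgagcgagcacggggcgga
Ciart holds 3 matches, beginning 116, 58 and 44 bases before its start, Per1 holds 1 at 166 bases and Bhlhe41 holds 1 at 153 bases. A window was matched for 16 of the 19 clock genes, and 5 of them hold the E-box: 3 of the 5 called genes with a window, and 2 of the 11 that were not called, Cry1 and Tef. Among all 32851 windows of this length 6.02% hold it. This share is per window, whereas a clock gene was counted if any of its windows held the E-box. A match describes the letters and is not a site of binding.

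Genes induced by glucocorticoids had 6 of 15 members higher and none lower, 4 relative to the median. Fkbp5, a co-chaperone of the glucocorticoid receptor (chromosome 17, 28399094 to 28517527), had 7.4, 7.12 and 7.1 RPKM at 26 months, against 1.88, 2.05 and 2 RPKM at 1 month (log2 fold change 1.82 ± 0.047, limma adjusted p = 1.63e-07). Zbtb16, a zinc finger repressor, averaged 7.62 ± 0.318 RPKM at 26 months and 1.72 ± 0.151 RPKM at 1 month. The metallothioneins Mt2 and Mt1 bind zinc and copper and belong to the antioxidant list too. Mt2 had 143, 142 and 133 RPKM at 26 months, against 23, 23.2 and 23.1 RPKM at 1 month (log2 fold change 2.59 ± 0.034, limma adjusted p = 1.57e-08). Mt1 averaged 462 ± 16.8 RPKM at 26 months and 221 ± 4.66 RPKM at 1 month, which was 0.82 relative to the median and not called there. Per1 is a member of this list as well. The well-known targets Tsc22d3 and Sgk1 had log2 fold changes of 0.58 and 0.18, below the threshold. Of 18 chaperones none was called higher. The small heat shock protein Hspb1 had 117, 115 and 116 RPKM at 26 months, against 226, 257 and 254 RPKM at 1 month (log2 fold change −1.08 ± 0.049, limma adjusted p = 1.28e-06). It lost its call with the length trend removed and with quantile normalization. The heat-inducible pair Hspa1a and Hspa1b, which are near-identical copies, had log2 fold changes of −0.53 and −0.73.

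Some genes of proliferation, at low levels, fell. Of 25 tested cell cycle and DNA replication genes, 8 were called lower and 1 higher. Rrm2, the ribonucleotide reductase subunit made in dividing cells (chromosome 12, 24708241 to 24714146), had 0.275, 0.275 and 0.325 RPKM at 26 months, against 1.85, 1.68 and 1.7 RPKM at 1 month (log2 fold change −2.23 ± 0.082, limma adjusted p = 5.22e-07). The mitotic cyclin Ccnb2 had 0.25, 0.05 and 0.125 RPKM at 26 months, against 1.07, 1.02 and 1.05 RPKM at 1 month. The other lower members, among them Ccnb1, Cdk1 and Birc5, were below 1 RPKM at 1 month, and with a constant of 1 RPKM 1 member was called lower. The replication helicase genes Mcm2 to Mcm6 had log2 fold changes from 0.07 to 0.92, none called. The cyclin Ccnd1, which is also made in resting cells, was the higher member at 2.18 ± 0.181 RPKM at 26 months and 1.02 ± 0.0289 RPKM at 1 month. Its call was lost relative to the median (0.78), without 26-month library A (0.999) or C (0.99).

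Clustered histone genes, most of which are copied only in dividing cells, had 10 of 20 tested members lower and none higher, 13 lower relative to the median, with a median of −0.997. Hist1h2ap (chromosome 13, 21833026 to 21833507) had 3.9, 4.35 and 3.62 RPKM at 26 months, against 19.5, 23.8 and 24.4 RPKM at 1 month (log2 fold change −2.48 ± 0.099, limma adjusted p = 7.1e-07). Hist3h2a had 6.75, 6.6 and 7.28 RPKM at 26 months, against 17.1, 16.9 and 17.1 RPKM at 1 month (log2 fold change −1.29 ± 0.042, limma adjusted p = 3.63e-07). Hist1h4d averaged 2.92 ± 0.391 RPKM at 26 months and 9.82 ± 1.08 RPKM at 1 month, and Hist1h4h averaged 18 ± 1.32 RPKM at 26 months and 41.1 ± 2.27 RPKM at 1 month. All 20 members lay below 0. With a constant of 1 RPKM 4 members were called, and Hist1h4h was not called with the length trend removed. These copies are near-identical, so single members are uncertain.

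Senescence and p53 target genes had 3 of 16 tested members higher and none lower, and 2 higher and 1 lower relative to the median. Plaur, the urokinase receptor (chromosome 7, 24462484 to 24475968), had 4.33, 4.62 and 4.22 RPKM at 26 months, against 0.425, 0.5 and 0.35 RPKM at 1 month (log2 fold change 3.11 ± 0.11, limma adjusted p = 4.18e-07). Igfbp3, a carrier of insulin-like growth factors and a secreted factor of senescent cells (chromosome 11, 7206086 to 7213923), had 26.1, 25.2 and 26.3 RPKM at 26 months, against 9.75, 9.97 and 10.3 RPKM at 1 month (log2 fold change 1.36 ± 0.034, limma adjusted p = 1.45e-07). The stress cytokine Gdf15 averaged 2.6 ± 0.295 RPKM at 26 months and 1.11 ± 0.0382 RPKM at 1 month, and was 0.91 relative to the median and not called there. The cell cycle inhibitor Cdkn1a averaged 143 ± 1.82 RPKM at 26 months and 131 ± 6.02 RPKM at 1 month, a log2 fold change of 0.12. Cdkn2a, the classic mark of senescence, was listed at 0 in all 6 libraries. In the insulin-like growth factor axis, none of 15 members was called lower, but 2 were relative to the median. The 3 called higher were Igfbp3, Igfbp5 and the protease Pappa, which cleaves binding proteins and was listed at 0 at 1 month with a 26-month mean of 0.3 RPKM. Igfbp5 (chromosome 1, 72857932 to 72874884) had 47.3, 46.6 and 47.9 RPKM at 26 months, against 11, 10.7 and 10.7 RPKM at 1 month (log2 fold change 2.12 ± 0.028, limma adjusted p = 1.57e-08). The growth factor Igf1 averaged 100.4 ± 1.35 RPKM at 26 months and 82.6 ± 4.31 RPKM at 1 month. Its receptor Igf1r averaged 2.4 ± 0.0661 RPKM at 26 months and 1.85 ± 0.05 RPKM at 1 month. Neither was called. None of 11 tested imprinted growth genes was called. Of the abundant ones, Gnas, a G protein subunit, averaged 119.6 ± 1.53 RPKM at 26 months and 124 ± 3.19 RPKM at 1 month, and Cdkn1c, a cell cycle inhibitor, averaged 103 ± 1.33 RPKM at 26 months and 70.7 ± 4.63 RPKM at 1 month.

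Matrix genes fell and rose. Sparc, a collagen-binding protein of growing matrix (chromosome 11, 55394500 to 55423183), had 110.3, 111 and 106 RPKM at 26 months, against 389, 407 and 402 RPKM at 1 month (log2 fold change −1.87 ± 0.03, limma adjusted p = 3.19e-08). Of 16 tested proteoglycans and matrix proteins it was 1 of 4 lower, with Lum and Ogn, which organise collagen fibrils (log2 fold changes −1.49 and −1.19), and Epyc; none was higher. Fibrillar and network collagens had 5 of 15 tested members lower and 3 higher, and 6 lower and 1 higher relative to the median. Those lower were of type I, III, V and VI and at low level: Col1a2 had 0.225, 0.275 and 0.2 RPKM at 26 months, against 1, 1.07 and 1.1 RPKM at 1 month (log2 fold change −1.80 ± 0.1, limma adjusted p = 3.45e-06). Col1a1 and Col3a1 had log2 fold changes of −1.86 and −1.97. Those higher were Col11a2, Col16a1 at 6.84 ± 0.0764 RPKM at 26 months and 3.11 ± 0.184 RPKM at 1 month, and Col14a1 (log2 fold change 1.59), of which only Col14a1 was called relative to the median. With a constant of 1 RPKM no collagen was called, and without 1-month library B 3 were called lower. Of 18 basement membrane genes, 1 was called higher, Lama3, which averaged 0.133 RPKM at 26 months and 0.00833 RPKM at 1 month and was not called without 26-month library A. The abundant laminin Lamb2 and nidogen Nid1 had log2 fold changes of 0.56 and 0.31. Among bone genes, the osteocyte gene Dmp1 averaged 1.28 ± 0.0382 RPKM at 26 months and 0.425 ± 0.025 RPKM at 1 month. Acp5, the acid phosphatase of osteoclasts and macrophages, averaged 10.5 ± 0.439 RPKM at 26 months and 4.55 ± 0.025 RPKM at 1 month, which was 0.94 relative to the median and not called there. Spp1, osteopontin, the third most abundant gene of the comparison, averaged 7691 ± 79.3 RPKM at 26 months and 12475 ± 388 RPKM at 1 month (log2 fold change −0.70).

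Vessel genes were higher in part. Of 17 endothelial markers, 5 were called higher, 3 relative to the median, and none lower, with a list median of 0.78. Flt1, a receptor for vascular endothelial growth factor (chromosome 5, 147561604 to 147726011), had 5.33, 5.4 and 5.28 RPKM at 26 months, against 1.65, 1.55 and 1.5 RPKM at 1 month (log2 fold change 1.71 ± 0.048, limma adjusted p = 2.26e-07). Mfsd2a, a lipid transporter of barrier endothelium, averaged 1.62 ± 0.052 RPKM at 26 months and 0.475 ± 0.0866 RPKM at 1 month. The adhesion molecule Pecam1 averaged 7.81 ± 0.201 RPKM at 26 months and 3.77 ± 0.0382 RPKM at 1 month, and the cadherin Cdh5 averaged 1.74 ± 0.113 RPKM at 26 months and 0.792 ± 0.0289 RPKM at 1 month. These were differences of 0.79 and 0.80 relative to the median, where both lost their calls. Vwf, von Willebrand factor, was called too (log2 fold change 1.39). Of 11 tested pericyte and smooth muscle markers, 4 were higher and none lower, and 2 were relative to the median. Myh11, the myosin of smooth muscle, averaged 1.06 ± 0.0804 RPKM at 26 months and 0.258 ± 0.0382 RPKM at 1 month. Abcc9, a channel subunit of pericytes, averaged 1.77 ± 0.123 RPKM at 26 months and 0.65 ± 0.0661 RPKM at 1 month. Pdgfrb and Higd1b, at log2 fold changes of 1.07 and 1.24, were not called relative to the median. Of 8 tested nerve and Schwann cell markers 3 were higher. The neuronal filament gene Prph averaged 4.02 ± 0.29 RPKM at 26 months and 1.63 ± 0.101 RPKM at 1 month. Egr2, also an immediate early gene, was called too.

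Genes of energy metabolism mostly stayed within the fold threshold. None of the 48 nuclear genes of the respiratory chain was called, but their median log2 fold change was −0.51, or −0.76 relative to the all-gene median, where 9 were called lower. Cox8a, a subunit of cytochrome c oxidase (chromosome 19, 7215153 to 7217616), had 925, 937 and 876 RPKM at 26 months, against 1446, 1449.7 and 1468 RPKM at 1 month (log2 fold change −0.67 ± 0.034, SE, limma adjusted p = 1.98e-06). Cox6a1, another subunit of that complex, had 816, 828 and 785 RPKM at 26 months, against 1268, 1315 and 1329 RPKM at 1 month (log2 fold change −0.69). Without a fold threshold 46 of the 48 passed as lower and 1 as higher, and without 1-month library B 1 was called lower. Of 13 mitochondrially encoded genes 1 was called lower, and 10 had a log2 fold change below 0 and 3 above, the highest mt-Nd6 at 0.40. The called gene, mt-Nd3, a subunit of complex I, had 276, 289 and 293 RPKM at 26 months, against 895, 593 and 662 RPKM at 1 month (log2 fold change −1.30 ± 0.14, limma adjusted p = 7.68e-05), with 1-month library A far above B and C. When near-identical libraries were averaged it was not called (log2 fold change −1.39, limma adjusted p = 0.128). mt-Co3, the second most abundant gene, averaged 10288 ± 215 RPKM at 26 months and 14708 ± 1616 RPKM at 1 month (log2 fold change −0.51), and 1-month library A was again the highest. Ribosomal protein genes, 75 in number, had no call and a median of −0.18, and 4 were called lower relative to the median. Rplp1, of the large subunit, averaged 142 ± 4.47 RPKM at 26 months and 182 ± 8.87 RPKM at 1 month, and Rps25, of the small subunit, averaged 183 ± 11.5 RPKM at 26 months and 189 ± 14.9 RPKM at 1 month.

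Calls in the other maintenance pathways differed by list. Among 23 antioxidant genes Mt1 and Mt2 were the ones called. The superoxide dismutase genes Sod1 and Sod2 had log2 fold changes of −0.05 and −0.69, and the plasma glutathione peroxidase Gpx3 averaged 3171 ± 21.6 RPKM at 26 months and 1916 ± 61.3 RPKM at 1 month. Iron handling genes had no call of 11 tested, of which the ferritin light chain Ftl1 averaged 3471 ± 57.9 RPKM at 26 months and 2387 ± 169.7 RPKM at 1 month. Transferrin, Trf, averaged 139 ± 1.1 RPKM at 26 months and 86.5 ± 4.37 RPKM at 1 month. Lipid handling genes had 5 of 18 higher and 1 lower, but 3 higher and 3 lower relative to the all-gene median or with median of ratios scaling. Fabp5, a fatty acid binding protein (chromosome 3, 10012548 to 10016607), had 1.4, 1.65 and 1.4 RPKM at 26 months, against 0.125, 0.125 and 0.125 RPKM at 1 month (log2 fold change 2.81 ± 0.09, limma adjusted p = 3.53e-07). Cd36, a fatty acid and lipoprotein receptor, had 1.95, 1.82 and 2.17 RPKM at 26 months, against 0.4, 0.325 and 0.425 RPKM at 1 month (log2 fold change 2.11 ± 0.1, limma adjusted p = 1.75e-06). The desaturase Scd1 averaged 161 ± 1.5 RPKM at 26 months and 71.1 ± 0.602 RPKM at 1 month. The cholesterol exporter Abca1 averaged 11.1 ± 0.156 RPKM at 26 months and 5.4 ± 0.156 RPKM at 1 month. Neither was called relative to the median (0.94 and 0.77), and Abca1 fell just short without 1-month library A (0.997). Autophagy genes had no call of 19 tested. Lamp1, of the lysosomal membrane, averaged 440.2 ± 3.44 RPKM at 26 months and 361 ± 3.96 RPKM at 1 month, and Gabarapl1, of the autophagosome, averaged 176 ± 3.85 RPKM at 26 months and 217 ± 3.29 RPKM at 1 month. DNA repair genes had 2 of 19 higher. Mgmt, which removes alkyl groups from DNA, averaged 1.01 ± 0.0946 RPKM at 26 months and 0.433 ± 0.0144 RPKM at 1 month, and Atr, a damage kinase, had a log2 fold change of 1.02. Neither was called relative to the median. Atr lost its call without 26-month library B and without 1-month library C, and neither gene was called with a constant of 0.5 RPKM.

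Of 27 enzymes that modify histones or DNA, 5 were called higher and none lower, 2 relative to the median. Sirt1, a deacetylase that depends on NAD (chromosome 10, 63319005 to 63381704), had 2.17, 2.05 and 2.38 RPKM at 26 months, against 0.45, 0.325 and 0.4 RPKM at 1 month (log2 fold change 2.23 ± 0.11, limma adjusted p = 1.64e-06). Hdac4, a class II deacetylase, averaged 4.86 ± 0.21 RPKM at 26 months and 1.84 ± 0.0804 RPKM at 1 month. Tet2, which oxidises methylated cytosine, averaged 1.68 ± 0.0878 RPKM at 26 months and 0.725 ± 0.025 RPKM at 1 month. Dnmt1, the maintenance DNA methyltransferase, averaged 9.86 ± 0.33 RPKM at 26 months and 4.88 ± 0.254 RPKM at 1 month, a log2 fold change of 1.002 at the edge of the threshold. It was 0.76 relative to the median, 0.98 without 26-month library A, 0.997 without 26-month library B and 0.96 without 1-month library A, and was not called in any of these. Hdac9 was called too (log2 fold change 1.19), at a 26-month mean of 0.15 RPKM.

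Ptgds, the prostaglandin D synthase of the cochlear wall (chromosome 2, 25466709 to 25470046) and the most abundant gene, had 27438, 27057 and 27505 RPKM at 26 months, against 22261, 24684 and 24408 RPKM at 1 month. Its log2 fold change was 0.20, or −0.04 relative to the median.

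The values at 9 months, set beside those of the other ages, show different courses behind the net difference. Lyz2 averaged 84.2 at 1 month, 258 at 9 months and 946 RPKM at 26 months, and Cd74 5.9 at 1 month, 8.53 at 9 months and 31.7 RPKM at 26 months. Both were lowest at the youngest and highest at the oldest age. Fos averaged 1.46 at 1 month, 3.52 at 9 months and 19.2 RPKM at 26 months, and Ciart 1.74 at 1 month, 1.57 at 9 months and 18 RPKM at 26 months. Both were below 4 RPKM at the younger ages. Igfbp5 averaged 10.8 at 1 month, 94.6 at 9 months and 47.3 RPKM at 26 months. Coch averaged 50.5 at 1 month, 335 at 9 months and 157 RPKM at 26 months, and Slc4a11 9.42 at 1 month, 84 at 9 months and 28.9 RPKM at 26 months. All 3 were highest at 9 months, and their 26-month levels lay between those of the other ages. Crhbp averaged 106 at 1 month, 284 at 9 months and 6.7 RPKM at 26 months, and Vmo1 133 at 1 month, 340.0 at 9 months and 15.3 RPKM at 26 months. Both were highest at 9 months and lower at 26 months than at 1 month. Hbb-bs averaged 1234 at 1 month, 177 at 9 months and 249.8 RPKM at 26 months, and S100a9 35.4 at 1 month, 2.8 at 9 months and 7.25 RPKM at 26 months, both lowest at 9 months. Sparc averaged 399 at 1 month, 173 at 9 months and 109 RPKM at 26 months, in falling order. Per1 averaged 0.867 at 1 month, 3.53 at 9 months and 4.67 RPKM at 26 months. These values share the 26-month and 1-month libraries with the comparison above and are given as levels only.

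**Figure D5:**
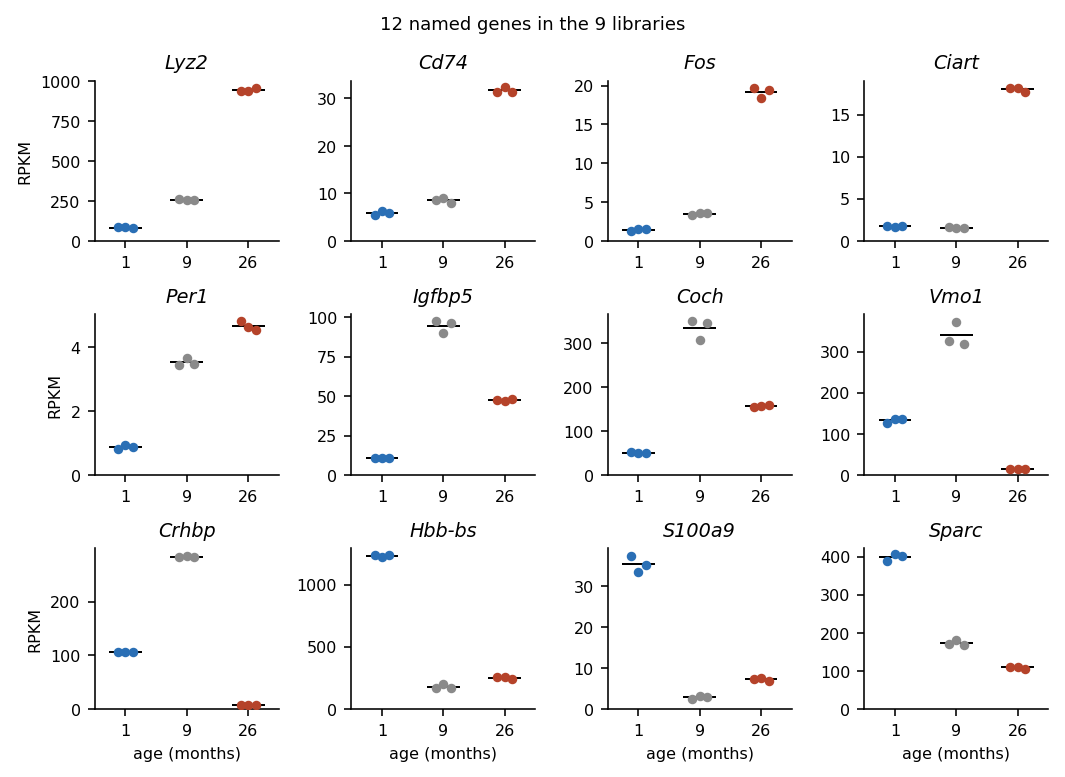
RPKM of 12 named genes in the 9 libraries, with 3 points per age and a bar at their mean, at 1, 9 and 26 months; each vertical axis starts at 0. Lyz2 and Cd74 are highest at 26 months, Coch, Igfbp5, Vmo1 and Crhbp at 9 months, and Hbb-bs, S100a9 and Sparc at 1 month.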

How the data were processed

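RNA from cells of the stria vascularis was sequenced in 9 libraries, of which the 3 at 26 months and the 3 at 1 month were compared. Per the labels and the study's methods, libraries were made by SMARTer amplification and Nextera tagmentation, run on a HiSeq instrument and mapped in CLC Genomics Workbench to mm10 (GRCm38), and the authors deposited 1 RPKM value per gene and library over its 4 runs. The version of the software and whether strand was counted are not given in the sources used here. Deposited RPKM values are whole multiples of 0.025, which bounds the precision of low genes, and give no read counts. The authors' own fold changes and p-values, deposited in the same table, were not used.

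Groups came from the repository's labels. Genes that reached 0.1 RPKM in 3 or more of the 6 libraries were tested on log2(RPKM + 0.1) with limma 3.58.1 in R 4.3.3 (trend in the variance, no covariate), two-sided, adjusted by Benjamini-Hochberg over all 15329 genes, so fold changes understate the change of low genes. A call needed an adjusted p no larger than 0.10 and a log2 fold change of 1 or more in either direction, on the deposited scale or relative to the all-gene median. The fit was tested on simulated data of the same 15329 genes. It recovered 100% of genes set to a log2 fold change of 1.5, and 100% at a log2 fold change of 3. The genes set to change were drawn above a minimum mean RPKM, and the noise had the spread found within an age. Both set sizes lay past the fold threshold. Recovery in the lowest genes, near the threshold or under a wider spread between animals was thus not tested. Python 3.11.15 with numpy 2.4.6 and pandas 2.3.3 made the tables, and matplotlib 3.10.9 the figures. Coordinates and exon lengths are of GENCODE M21 on GRCm38, matched by Ensembl gene identifier for 48349 of 48709 genes, and positions are counted from 1. Promoter windows are of RefSeq.

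Named genes were the 14 called genes with the largest change each way with a mean of at least 5 RPKM at the higher age and no overlap between libraries, predicted genes and pseudogenes left out, up to 4 called members of each of 40 gene lists by smallest p, if they averaged 1 RPKM or more at the higher age, the 2 most abundant members of a list with none, the 3 most abundant genes and the checks on sex. Of 815 list memberships 811 were matched and 738 tested. Counts cover all list members, but single values of some are not reported here. The members and lists were chosen with earlier results of these data known. Alternatives were other constants, filters, scalings, thresholds and fits, and each library left out.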

Additional observations from a re-analysis of the deposited data

How the results depend on the processing

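The exact depth of each library is unknown, so the precision of low genes could not be given, and many calls were in genes of low level. Quantile normalization, median of ratios scaling and removal of the length trend bring the all-gene median near 0 by construction. The all-gene median, 0.25, was 0.13 with a constant of 1 RPKM, 0.18 with 0.5 RPKM, 0.19 with no filter, −0.0027 under quantile normalization, 0.0087 under median of ratios scaling, 0.23 rescaled without the 50 most abundant genes, −0.0043 with the length trend removed and 0.25 (0.253) with near-identical libraries averaged. The counts of 1562 higher and 394 lower genes were 452 and 112 with a constant of 1 RPKM, 742 and 170 with 0.5 RPKM, 1036 and 187 among genes that reached 1 RPKM in 3 or more libraries, 775 and 733 under quantile normalization, 905 and 681 under median of ratios scaling, 878 and 490 with the length trend removed, and 8539 and 3607 with no fold threshold. Relative to the all-gene median, 845 higher and 711 lower genes were 307 and 169 with a constant of 1 RPKM, 429 and 294 with 0.5 RPKM, 548 and 376 with at least 1 RPKM, and 6000 and 5962 with no fold threshold.

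With each library left out in turn, 1563 to 1591 genes were called higher and 391 to 406 lower, 836 to 889 and 699 to 761 relative to the median, and the median was 0.24 to 0.25. Between same-lettered libraries of the 2 ages, deviations correlated at −0.095, −0.098 and 0.031 over 10770 genes. Between differently lettered libraries, correlations ran from −0.084 to 0.13. With 3 libraries per age, these values cannot show whether the letters pair libraries. A replicate block gave 1563 higher and 394 lower, and 846 and 711 relative to the median. Of 109 named genes with a call, 74 kept it under all 20 alternatives and none reversed. The cause of these shifts was not tested.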
